A study of Mus musculus with 3 samples.

Results

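Th17 cells, grown with IL-6 and TGFβ, were compared with Th22 cells, grown with IL-6 alone, so that the comparison describes what came with the addition of TGFβ. It used 2 of the 3 arrays of the series, 1 for each condition, and covered the 19938 mouse genes that had a probe assigned to a single gene symbol, out of 28853 probes on the array. The Th0 array, from cells that received no cytokine, was set beside the pair to show where each gene lay without IL-6. In all conditions the starting cells were naive splenic CD4 T cells (CD4+CD25-CD62LhighCD44low) of the OT-II strain B6.Cg-Tg(TcraTcrb)425Cbn/J, in which a transgenic receptor recognises an ovalbumin peptide. They were activated with that peptide by T-cell-depleted spleen cells of Il23a-/- mice, so none of these feeder cells could make IL-23. T cells were recovered with magnetic beads at 60 hours. The sources used here give neither the animals' ages nor how many animals stood behind each array. With 1 array a side no test was run, and each value below is a size without a replicate check. The precision is limited by the number of arrays.

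IL-6 signals through a receptor pair that activates STAT3, and TGFβ through receptor kinases that activate Smad proteins. IL-6 without TGFβ gives helper cells that make IL-22, whereas IL-6 with TGFβ is the classical recipe for cells that make IL-17. TGFβ is also known outside the immune system as a regulator of extracellular matrix, of cell junctions and of the cytoskeleton, and as a brake on cytotoxic genes. The account below therefore follows gene families by function, and gives most room to those that are not usually counted among T-helper genes.

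Each deposited value was a difference from the probe's median of 3 arrays, taken here as log2. For a gene with 1 probe, the array in the middle therefore reads 0. Expression levels cannot be recovered, and values compare arrays, not genes. A gene was counted where Th17 and Th22 differed by at least 2-fold (1 log2). By this rule 220 genes (1.10%) were higher in Th17 and 300 (1.50%) were lower, together 2.61% of those measured. At least 4-fold differences were found in 57 genes towards Th17 and 81 towards Th22, and at least 8-fold differences in 17 and 21. The median over all genes was 0, and 44.5% of genes were exactly equal on both arrays. The genes nearest the threshold were Slc4a8 (1.001 log2) and Crmp1 (1.0005 log2) just inside and Tbc1d14 (0.999 log2) and Hid1 (0.998 log2) just outside on the Th17 side. On the Th22 side they were Ly75 (-1.008 log2) and Tpmt (-1.007 log2) inside and H2-Ab1 (-0.998 log2) and Slc2a3 (-0.997 log2) outside.

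The Th17 array stood apart from the others in the spread of its values, with an SD over probes of 0.277 log2 against 0.125 for Th22 and 0.166 for Th0. Quantile normalization forces the same distribution on all 3 arrays. It was run on the centred differences, because intensities cannot be recovered. It therefore narrows the spread of the Th17 array and widens that of Th22, and is another scaling rather than a test of single genes. It left 136 of the 220 higher and 180 of the 300 lower genes past 2-fold, and most named genes that it took below 2-fold are given with that value. It also moved the fold of 162 of the 520 genes by more than 1.5 times, 153 to a smaller and 9 to a larger value, so that large folds in particular depend on the scaling. Gzmb went from 89.3-fold to 30.1-fold, Ifitm3 from 29.9-fold to 12.2-fold, Akr1c18 from 25.6-fold to 9.43-fold, Nt5e from 24.3-fold to 12.7-fold, Aqp3 from 21.4-fold to 11.1-fold and Il9 from 14.9-fold to 39.0-fold. Ccr8 went from 4.79-fold to 14.9-fold and Fgf2 from 2.30-fold to 9.66-fold, both genes with their low value in Th22. Repeats existed only as separate probes of a gene, whose differences had an SD of 0.18 log2 over 999 genes. Of the 520 genes past 2-fold, 506 rested on 1 probe. In 4 of the 14 with several probes, these lay more than 1 log2 apart. The SD over 999 genes therefore does not describe the error of the genes past 2-fold. Cell identity could not be checked from levels, because the centring removed them. Of 10 listed CD4 T cell markers 8 were measured, and these differed between both arrays by -0.59 to 0.30 log2. None of 16 myeloid and dendritic markers passed 2-fold (range -0.23 to 0.05 log2), and 12 of them were equal. All 4 measured erythroid and platelet markers were equal. Of 10 B cell markers Cd72 was higher (2.53-fold, but 1.85-fold after quantile normalization) and Ebf1 lower (6.36-fold) in Th17, and of 7 CD8 and NK cell markers Gzma (4.85-fold) and Cd8b1 (2.20-fold, 1.61-fold after quantile normalization) were lower. The part of other cells in the results was not tested. In bulk RNA, fewer cells of a type and less RNA per cell cannot be told apart.

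For the genes past 2-fold, the Th0 array mostly lay close to Th22. Among the 220 genes higher in Th17, Th22 was within 2-fold of Th0 for 203 (92.3%) and Th17 for 19 (8.64%). Among the 300 lower genes, Th22 was within 2-fold of Th0 for 235 (78.3%) and Th17 for 92 (30.7%), and some genes count in both groups. All these counts share the same 3 arrays, and the Th0 values have no repeat either. The genes were chosen by their difference between Th17 and Th22, which bears on where Th0 falls, and Th17 had the widest spread of values. Shares over all genes were not taken, so the counts describe these genes alone. Il9, which encodes a mast cell growth cytokine, was the clearest case of a gene higher in Th17 through a low value in Th22: it read 0 in Th0, -3.40 in Th22 and 0.50 in Th17. Ccr8, a chemokine receptor gene, read 0.33, -2.26 and 0, and Fgf2, which encodes a fibroblast growth factor, read 0, -1.16 and 0.04. In each of the 3, Th0 and Th17 lay close together and Th22 lay alone below them. In the other direction Lum, which encodes the small matrix proteoglycan lumican, read 0 in Th0, 3.76 in Th22 and -0.38 in Th17. Moxd1, a monooxygenase gene, read 0, 2.37 and -0.14, and Cdh17, a cadherin gene of gut epithelium, -0.17, 2.32 and 0. Itga3, an integrin chain gene, read -0.03, 2.04 and 0, so that these 4 were high on the Th22 array alone.

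**Figure D1:**
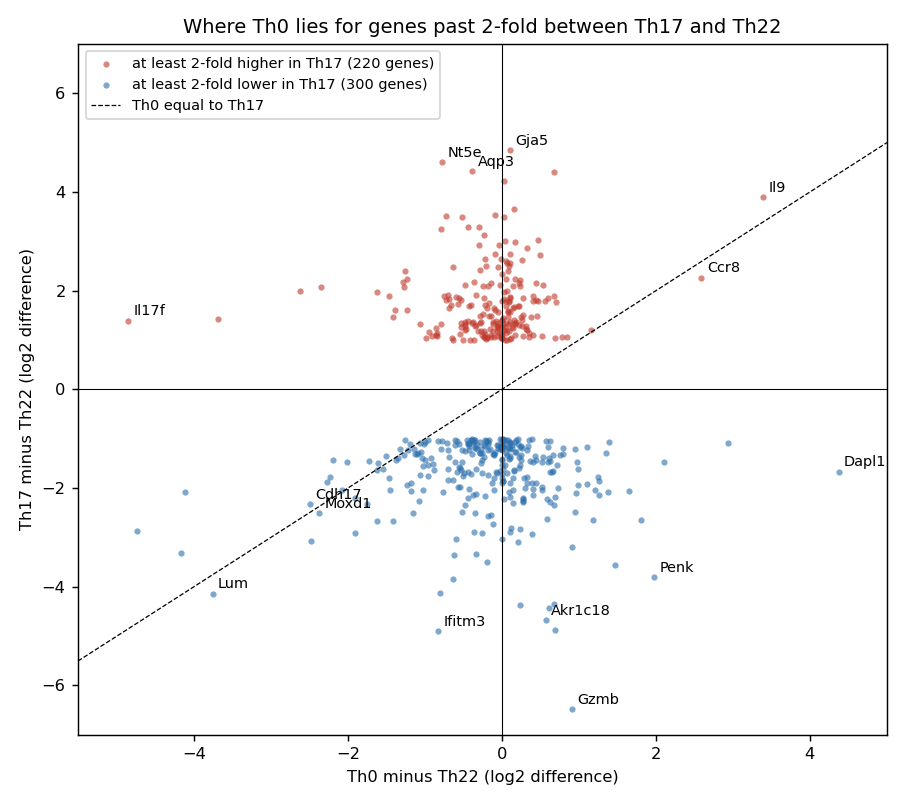
Each point is 1 of the 520 genes past 2-fold between Th17 and Th22; the horizontal axis is Th0 minus Th22 and the vertical axis Th17 minus Th22, both as log2 differences, with 1 array a condition. Most points lie near the vertical line where Th0 equals Th22, while Il9, Ccr8, Lum, Moxd1 and Cdh17 lie near the dashed line where Th0 equals Th17.

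The families were 100 lists, most of them defined by the first letters of gene symbols, and 71 of them had at least 1 member past 2-fold. Another 9 lists were made after the values were seen and are named as such. The 100 lists and their members were also chosen with earlier results of these data known, so that their shares are descriptions only. Of 48 usual T-helper genes 26 passed 2-fold, 14 higher and 12 lower. Among the other lists with at least 4 such members the largest share was in the Ms4a genes (6 of 19, each lower in Th17). Interferon-inducible genes (15 of 49, each lower) and genes that TGFβ induces in fibroblasts (7 higher and 1 lower of 35) came next. Solute carriers (13 of 379), kinesins, dyneins and myosins (4 of 121), lipid signalling enzymes (4 of 108) and growth factors with their receptors (4 of 103) had shares near the 2.61% of all genes.

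The 12 largest differences among the T-helper genes covered cytokines, receptors and factors. Il10 (21.1-fold), which encodes a regulatory cytokine, Ccl20 (18.6-fold), Il9 (14.9-fold), the regulatory T cell factor gene Foxp3 (12.6-fold), the factor gene Maf (11.4-fold) and the follicle homing receptor gene Cxcr5 (4.54-fold) were higher in Th17. The growth factor genes Il3 (29.3-fold) and Il2 (8.58-fold), the IL-23 receptor gene Il23r (7.33-fold), the Th1 factor gene Tbx21 (6.30-fold), the Th2 factor gene Gata3 (6.27-fold) and the IL-12 receptor gene Il12rb2 (5.88-fold) were lower. Il23r read -1.87 in Th0, 2.87 in Th22 and 0 in Th17. Il17a was 3.96-fold higher, and Il17f read -4.86, 0 and 1.39, but the 2.62-fold difference of Il17f between Th17 and Th22 was 1.90-fold after quantile normalization. Of the 26 genes 19 stayed past 2-fold after that step.

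**Figure D2:**
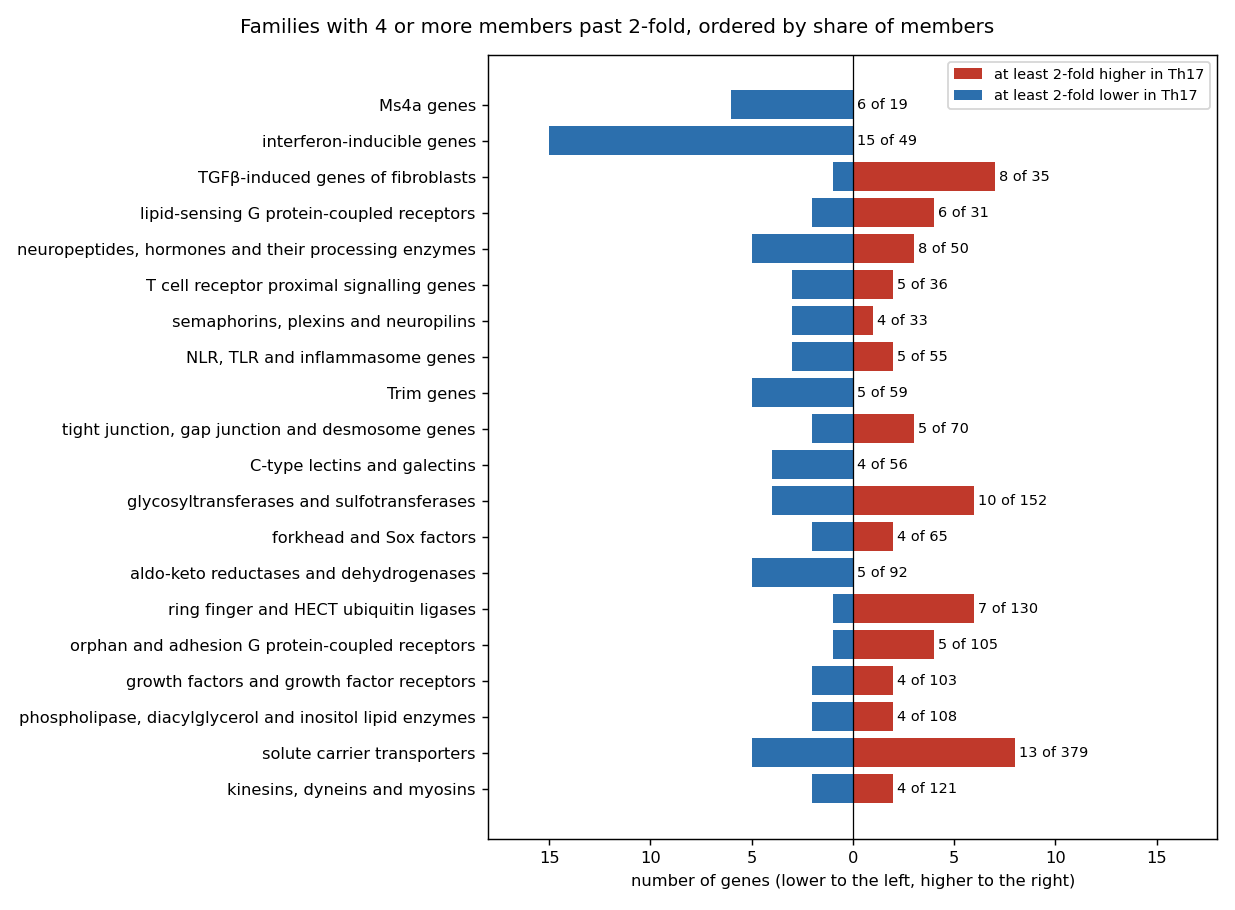
Bars give the number of genes at least 2-fold higher (right) or lower (left) in Th17 than in Th22 for the families described here with 4 or more such genes, other than the usual T-helper genes, cell type markers and the lists made later; the label gives both directions together and the number measured. Ms4a genes (6 of 19) and interferon-inducible genes (15 of 49) have the largest shares, and all of their counted genes lie to the left.

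Genes for the passage of water, glycerol and ions included Gja5, the largest difference towards Th17 as deposited. Gja5, which encodes a gap junction channel protein of heart and vessel, read 0 in Th0, -0.10 in Th22 and 4.75 in Th17, a 28.8-fold difference that was 22.1-fold after quantile normalization, where Il9 (39.0-fold) and Il10 (27.9-fold) were larger. The aquaporin family, added as a list after the values were seen, had 3 of 12 members higher and 0 lower. Aqp3, a channel for water and glycerol, read -0.38, 0 and 4.42, and Aqp9 and Aqp7, which also pass glycerol, read -0.18, 0 and 2.10 and 0, -0.25 and 1.22. For all 4 genes Th17 was the high array and the other two lay close together. Aqp11 lay the other way, 0.75 log2 lower in Th17. Atp1b1, which encodes the regulatory subunit of the sodium pump, was 8.16-fold higher in Th17, and Nipal1, a magnesium transporter gene, 11.2-fold. Sgk1, which encodes a salt-responsive kinase, was 11.5-fold higher. Atp8b4, a lipid flippase gene counted with the ion pumps, was 2.49-fold lower. Kcna3, the main voltage-gated potassium channel gene of T cells, was 2.46-fold lower and Kcnip2, a potassium channel partner gene, 2.09-fold higher. No member passed 2-fold among 27 TRP channels, 35 voltage-gated calcium and sodium channels, 36 chloride channels or 16 purinergic receptors. In this order 17, 24, 20 and 5 of them were exactly equal in Th17 and Th22 and may not have been detected. Subunits of the vacuolar proton pump, likewise listed after seeing the values, went both ways: Atp6v0a1 was 3.61-fold higher and Atp6v0d2 3.05-fold lower, with 22 of 24 within 2-fold. Quantile normalization left Kcna3 at 1.81-fold and Kcnip2 at 1.63-fold.

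Solute carriers differed gene by gene, with 8 higher, 5 lower and a median of 0 over 379. Towards Th17 the largest was the choline transporter gene Slc44a1, which read -0.42 in Th0, 0 in Th22 and 1.70 in Th17, and whose pair of probes lay 0.20 log2 apart. The folate transporter gene Slc46a1 was 2.55-fold higher, the zinc importer gene Slc39a8 2.54-fold, the mitochondrial ornithine carrier gene Slc25a15 2.38-fold and the aromatic amino acid transporter gene Slc16a10 2.23-fold. Slc34a3, a phosphate transporter gene, was 2.07-fold higher, Slc43a3, a nucleobase transporter gene, 2.06-fold and Slc4a8, a bicarbonate exchanger gene, 2.002-fold. Lower in Th17 was Slc17a6, which loads glutamate into synaptic vesicles and read 0.59, 0 and -2.22 in Th0, Th22 and Th17. Slc35d3 was 3.74-fold lower, Slc26a10 3.39-fold, the glutamine transporter gene Slc38a3 2.63-fold and the organic anion transporter gene Slco4a1 2.46-fold. Slc38a3 read 0, 1.04 and -0.36, so that here Th22 was the high array. Among 48 ABC transporters 3 were lower and 0 higher: Abcg3 (2.58-fold), the drug efflux pump gene Abcg2 (2.43-fold) and the lysosomal peptide pump gene Abcb9 (2.04-fold). After quantile normalization Slc46a1, Slc39a8, Slc16a10, Slc34a3, Slc4a8, Slco4a1 and the 3 ABC transporters were under 2-fold, at 1.59- to 1.92-fold.

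Receptors for lipids and peptides differed in both directions. Of 31 genes matched as lipid-sensing G protein-coupled receptors 4 were higher and 2 lower. Lpar6, a lysophosphatidic acid receptor gene, read -0.67 in Th0, 0 in Th22 and 1.72 in Th17, and Ltb4r1, which encodes a receptor for the chemoattractant leukotriene B4, read -0.79, 0 and 1.32. S1pr3, a sphingosine-1-phosphate receptor gene, was 2.47-fold higher. Ptgfrn, 2.01-fold higher, matched the name pattern but encodes an immunoglobulin-domain protein and not such a receptor. Cysltr2, which encodes a receptor for cysteinyl leukotrienes, read 0, 0.48 and -1.86, a 5.06-fold difference, and the prostacyclin receptor gene Ptgir was 2.05-fold lower. Thus 1 leukotriene receptor gene was higher and another lower in Th17. Of 18 eicosanoid synthesis genes none passed 2-fold, with a range of -0.37 to 0.29 log2.

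Among 105 orphan and adhesion receptors 4 were higher and 1 lower. Gpr15, a gut homing receptor gene, was 6.09-fold higher. Lgr4, whose product binds R-spondins, read -1.27, 0 and 2.07 in Th0, Th22 and Th17, so that each array differed. Gpr83 (2.10-fold) and Adgrg1 (2.06-fold), an adhesion receptor gene, were higher, and Gpr174, a lysophosphatidylserine receptor gene, was 2.70-fold lower. Cmklr1, which encodes the receptor for chemerin, was on no list, and it read 0, -0.05 and 2.19, a 4.73-fold difference. Components of the calcitonin-like receptor, which pairs with a RAMP partner to sense CGRP or adrenomedullin, formed a group listed after the values were seen. Calcrl, the receptor gene, read 0.29, 0 and -1.80, and its partner gene Ramp3 0.59, 0 and -2.62, a 6.15-fold difference. Ramp1, the partner that gives CGRP binding, read -0.90, 0 and 1.09. The partner genes Ramp1 and Ramp3 thus lay on opposite sides, Ramp2 was equal on all 3 arrays, and the ligand gene Adm was 0.90 log2 lower in Th17, inside the threshold. Quantile normalization left Ltb4r1, S1pr3, Ptgfrn, Ptgir, Gpr83, Adgrg1, Gpr174 and Ramp1 at 1.55- to 1.84-fold.

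Enzymes that build glycans had 6 members higher and 4 lower of 152. Gcnt2, which branches poly-N-acetyllactosamine chains, read -0.79 in Th0, 0 in Th22 and 3.25 in Th17, a 9.52-fold difference. B3gnt8, which extends such chains, read -0.56, 0 and 1.85, and Mgat5, which adds the branch on N-glycans that carries them, 0, -0.46 and 1.04. B4galt1, which supplies their galactose, was 2.22-fold higher. These were named for passing 2-fold, and the other members of their subfamilies lay within it or were lower. Ust, a sulfotransferase gene of chondroitin and dermatan sulfate, was 2.49-fold higher and Ext1, a polymerase gene of heparan sulfate, 2.11-fold. In the other direction Man1a, which trims mannose early in N-glycan processing, was 3.19-fold lower, the polysialyltransferase gene St8sia4 2.65-fold and B3gnt5, which starts lacto-series glycolipids, 2.16-fold. St3gal1, a sialyltransferase gene, was 2.13-fold lower by the mean of probes that lay 2.18 log2 apart and is therefore uncertain. Gfpt2, which feeds the hexosamine pathway that makes the sugar donor of these enzymes, was 5.69-fold higher, while Gfpt1, which encodes the other such enzyme, was 0.32 log2 lower. Hpse, which encodes the enzyme that cuts heparan sulfate, read 0, 0.35 and -2.15, a 5.65-fold difference, and Papss2, which makes the sulfate donor, was 2.16-fold lower. After quantile normalization Ust, B4galt1, Ext1, St8sia4, B3gnt5, St3gal1 and Papss2 lay at 1.54- to 1.89-fold.

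**Figure D3:**
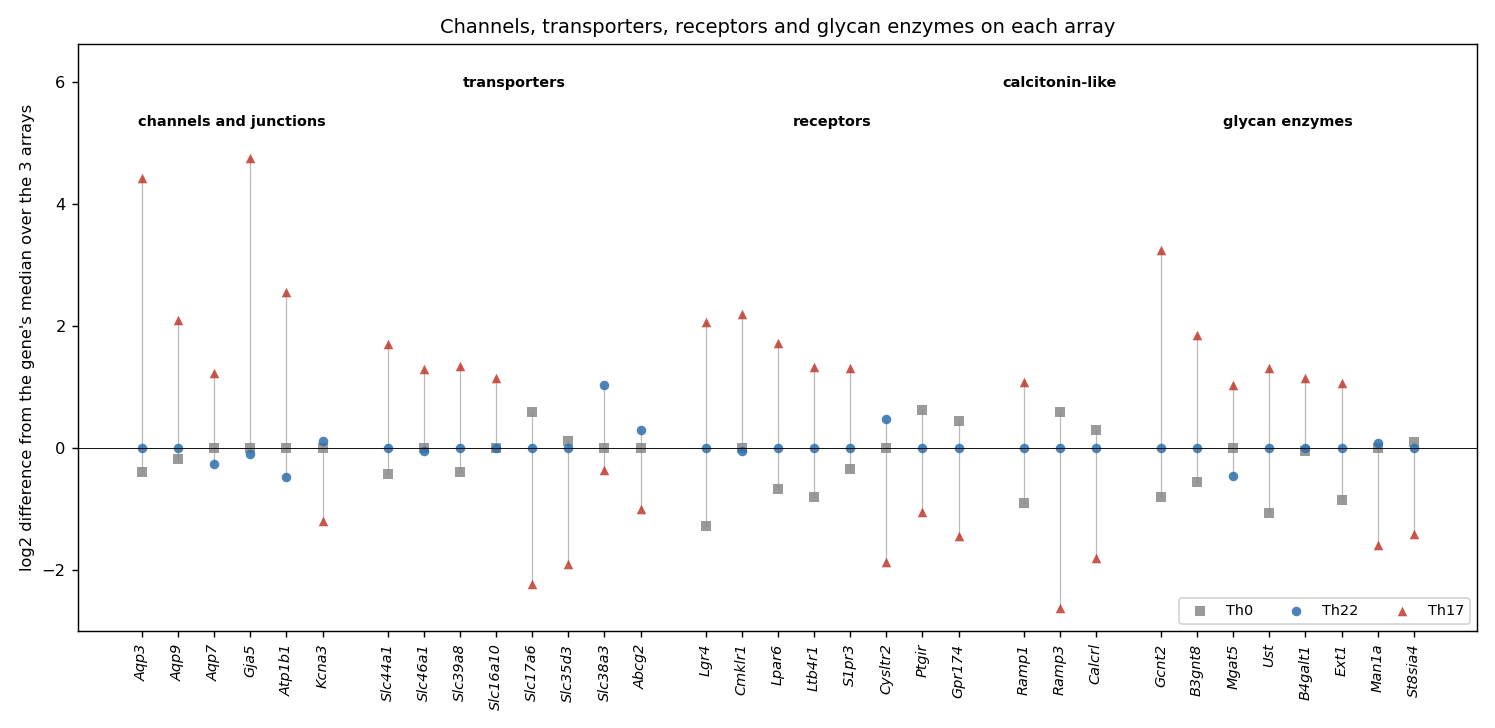
Values of named channel, transporter, receptor and glycan enzyme genes on each of the 3 arrays, as log2 differences from the gene's median (squares Th0, circles Th22, triangles Th17; 1 array a condition). Th17 is the extreme array for all genes shown except Slc38a3, and the other two lie close together for Gja5, Aqp3 and Cmklr1.

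Genes of the extracellular matrix and metalloproteases passed 2-fold at shares near that of all genes, with Lum as the largest. Of 88 proteoglycan and matrix genes 1 was higher and 2 lower. Of 44 collagen genes none passed 2-fold, and 24 were exactly equal in Th17 and Th22. Lum was 17.6-fold lower in Th17 and its relative and chromosomal neighbour Dcn, which encodes decorin, read 0, 1.47 and -0.33 in Th0, Th22 and Th17, a 3.48-fold difference. Both were high on the Th22 array and nearly equal on the other two. Thbs1, which encodes thrombospondin, an activator of latent TGFβ, was 2.80-fold higher (1.98-fold after quantile normalization). Itih5, which encodes a protein that stabilises hyaluronan, read 0.10, 0 and -2.88, low on the Th17 array. Tgm1, a protein crosslinking enzyme gene, was 6.37-fold lower.

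Among 89 metalloproteases and inhibitors Timp2, a metalloprotease inhibitor gene, was 3.47-fold higher and read 0 in Th22 and 1.80 in Th17. Adam19, a membrane protease gene, read -1.24, 0 and 1.61 in Th0, Th22 and Th17, while its relative Adam8 was 2.58-fold lower. In the coagulation list of 36, Procr, which encodes the protein C receptor, was 8.79-fold higher and Plau, which encodes urokinase, read 0, -0.24 and 1.98, a 4.67-fold difference. Serpinf1 was 2.05-fold lower. Of 41 cathepsins and cystatins Ctsw (3.95-fold) and Ctsc (3.15-fold), which encodes the protease that activates granzymes, were higher, and Cst7, which encodes an inhibitor of that protease, was 2.40-fold lower (1.77-fold after quantile normalization). Gzmb, a substrate of that protease, was 89.3-fold lower, at 0.91, 0 and -6.48.

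Peptide precursors and the enzymes that process them had 3 of 50 members higher and 5 lower, with Ramp1 and Ramp3 counted among them. Penk, which encodes the enkephalin precursor, read 1.98 in Th0, 0 in Th22 and -3.80 in Th17, so that all arrays were apart. Pcsk1, which encodes a protease that cuts such precursors, read 0, 0.56 and -1.41. Cpd, a carboxypeptidase gene of the late Golgi, was 7.59-fold higher, and Furin, whose product cuts the TGFβ precursor among others, 2.42-fold (1.79-fold after quantile normalization). Stc1, a secreted glycoprotein gene, was 3.11-fold lower and Insl6, of the relaxin family, 2.73-fold (1.86-fold after quantile normalization). Genes named for synaptic vesicles and transmitters were gathered after the values were seen, and 5 of 23 were higher and 2 lower. Gad2, which makes the transmitter GABA, read -0.10, 0 and 1.65, Syp, a vesicle membrane protein gene, -0.19, 0 and 1.64, and Syn1, a vesicle coat gene, -0.27, 0 and 1.37. Neto2, a glutamate receptor partner gene, was 3.48-fold higher, and Crmp1 was at the threshold. Besides Slc17a6, Dnm1, the neuronal dynamin gene, was lower (3.84-fold). Quantile normalization left Syn1 at 1.88-fold and Crmp1 at 1.59-fold. Of 1027 olfactory receptor genes, which belong to an unrelated tissue, 2 passed 2-fold. They are a weak reference for the genes above, because 762 of them were exactly equal in Th17 and Th22 and may not have been detected.

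Guidance and adhesion genes past 2-fold were few and lay in both directions. Of 33 semaphorins, plexins and neuropilins 1 was higher and 3 lower. Sema6d read 0 in Th0, -0.26 in Th22 and 2.35 in Th17, a 6.11-fold difference, and the semaphorin receptor gene Plxnc1 read 0.91, 0 and -3.19, a 9.14-fold difference in the other direction. Sema4c was 2.53-fold and Plxnd1 2.42-fold lower, at 1.77-fold and 1.71-fold after quantile normalization. None of 21 ephrin and Eph receptor genes passed 2-fold (range -0.05 to 0.26 log2), but 15 were exactly equal in Th17 and Th22. Of 81 neuronal adhesion genes Nrn1, which encodes neuritin, was 17.4-fold lower, at 0, 0.81 and -3.32. Cdh17 was 5.01-fold and Celsr1 2.06-fold lower among 72 cadherins (Celsr1 1.67-fold after quantile normalization). Of 70 junction genes, beside Gja5, Cldnd1 (4.48-fold) and Emp1 (4.19-fold), a membrane protein gene of epithelia, were higher. Emp1 read -2.35, 0 and 2.07, with all 3 arrays apart. Pkp2 was 2.16-fold and Perp 2.09-fold lower, Perp at 1.67-fold after quantile normalization.

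Of the receptors and feedback genes of TGFβ itself, most lay within 2-fold and those past it were higher, Id3 excepted. Tgfbr1, the signalling receptor gene, read 0 in Th0, -0.49 in Th22 and 2.23 in Th17, and the activin receptor gene Acvr2a 0, -0.17 and 2.05. Bmpr2 was 2.62-fold and Tgfbr2 2.15-fold higher, so that 4 of 14 receptor genes of the family, a list made after the values were seen, were higher and 0 lower. In the fibroblast list Ldlrad4 and Pmepa1, which restrain Smad signalling, were 9.77-fold and 4.33-fold higher, and Skil, a repressor of Smad target genes, 3.70-fold. Klf10, an early TGFβ response gene, was 2.57-fold higher, Pdgfb 2.50-fold and Smad7 2.30-fold, and Id3 was 3.35-fold lower. Its members Col1a1, Col1a2, Col3a1, Fn1 and Postn lay within 2-fold, whereas the matrix gene Thbs1, described above, was 2.80-fold higher (1.98-fold after quantile normalization). After quantile normalization Bmpr2, Tgfbr2, Klf10, Pdgfb and Smad7 lay at 1.73- to 1.97-fold.

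Ubiquitin ligases of the RING and HECT types had 6 of 130 members higher and 1 lower. Peli2, whose product modifies IL-1 and Toll-like receptor kinases, read 0 in Th0, -0.10 in Th22 and 2.65 in Th17. Rnf149 (3.32-fold), Rnf180 (3.24-fold), Rnf208 (2.44-fold), Herc3 (2.26-fold) and Neurl3 (2.17-fold) were higher. Rnf43, which removes Wnt receptors, was 2.33-fold lower. Of 154 F-box, Kelch and cullin genes Asb2, a substrate receptor gene of cullin ligases, was 4.07-fold lower, at 0.40, 0 and -2.03, and Fbxo30 2.31-fold higher. Of 73 deubiquitinases Usp18, which dampens interferon signalling, was 2.45-fold lower. Usp6nl, which matched by name but encodes a Rab regulator, was 2.03-fold higher. Quantile normalization left Rnf208, Herc3, Neurl3, Rnf43, Usp18 and Usp6nl at 1.60- to 1.79-fold.

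Motor and cytoskeleton genes differed in both directions. Myo3b, a myosin gene of sensory cells, was 6.66-fold higher, and Myh10, a nonmuscle myosin heavy chain gene, read 0.41, 0 and -2.15. Capg, which caps actin filaments, was 2.59-fold higher (1.87-fold after quantile normalization), and the actin-binding Coro2a (3.24-fold) and the microtubule end-binding Mapre2 (3.71-fold) were lower. None of 54 MAP kinase genes passed 2-fold (range -0.77 to 0.84 log2).

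Genes next to the T cell receptor formed a small group of opposite parts. Trat1, which encodes an adaptor that stabilises the receptor at the surface, read 0.39 in Th0, 0 in Th22 and -2.93 in Th17, a 7.62-fold difference. Tespa1 and Themis, which encode signalling proteins of thymocyte selection, were 4.42-fold and 2.12-fold lower. Lax1, which encodes an adaptor that restrains receptor signals, read 0, -0.06 and 1.64, and Ubash3b, a phosphatase gene with a similar restraining role, 0, -0.01 and 1.43. The other 31 of 36 genes lay within 2-fold. Mcu, which encodes the mitochondrial calcium channel, was 2.19-fold lower and the calcium release channel gene Itpr3 2.19-fold higher, but after quantile normalization these and Ubash3b were at 1.60-, 1.68- and 1.95-fold.

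Some transcription factor genes known from other tissues were higher in Th17, against a share of 2.61% past 2-fold over all genes. Of 133 homeobox genes 3 were higher and 0 lower (2.26%), and of 76 basic helix-loop-helix and basic zipper genes 1 was lower (1.32%). Of 65 forkhead and Sox genes 2 were higher and 2 lower (6.15%), and of 49 nuclear receptors 2 were higher and 1 lower (6.12%). Lhx6, a homeobox gene of cortical interneurons, was equal in Th0 and Th22 and 2.34 log2 higher in Th17. Tfap2a, a factor gene of skin and neural crest, read 0, -0.07 and 1.92 and Foxf2, a forkhead gene of gut mesenchyme, 0, -0.08 and 1.51. Nr1d1, which encodes the clock repressor REV-ERBα, read 0, -0.02 and 1.95, while among 17 clock genes Rora (3.03-fold) was the other past 2-fold and 15 lay within it. For these factor genes the Th17 array was the high one and the other two were nearly equal, Rora excepted, which read -1.39 in Th0. Zfp318 (3.16-fold), Zbtb18 (2.66-fold) and Cux1 (2.52-fold) were also higher, although 414 of 416 zinc finger genes lay within 2-fold. Pou2af1, a coactivator gene matched with the homeobox genes by name, was 5.58-fold higher, and Nrarp, which encodes a Notch feedback protein, 2.76-fold. In the other direction the stress factor gene Atf3 read 1.38, 0 and -2.09, and Tet1, which encodes an enzyme that oxidises methylated DNA, 0, 0.54 and -1.44. Chd3, a remodeller gene, was 2.51-fold higher and Chd7 2.04-fold lower, though 30 probes of Chd7 lay up to 1.14 log2 apart. Foxf1 (2.46-fold) and Sox5 (2.34-fold) were lower through a high value in Th22, at 1.09 and 1.22 log2 there, but the pair of Foxf1 probes lay 1.08 log2 apart. Pparg (2.27-fold), which encodes a lipid-activated receptor, and Jarid2 (2.25-fold), of the Polycomb complex, were lower. Zbtb18, Cux1, Pparg and Jarid2 were at 1.65- to 1.91-fold after quantile normalization.

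In some families of lymphocyte surface and cytoplasmic genes each member past 2-fold was lower, although most members lay within 2-fold. Of 19 Ms4a genes, whose products are membrane proteins with several spans such as CD20, 6 were lower and 0 higher. Ms4a4b, which encodes a T cell protein of this family, read 0.0003 in Th0, 0 in Th22 and -3.03 in Th17, and Ms4a6d 0, 0.60 and -2.43. Ms4a4a was 4.02-fold lower, Ms4a4c 3.79-fold, Ms4a6b 3.74-fold and Ms4a6c 2.02-fold (1.53-fold after quantile normalization), and the B cell gene Ms4a1 was equal in Th17 and Th22. In all 6 the Th17 array was the low one. These genes are close relatives, so that the assignment of signal to single members is uncertain. Of 13 SLAM family genes, receptors that bind each other between lymphocytes, 3 were lower: Slamf7 (7.39-fold, at 0, 0.36 and -2.52), Slamf1 (2.77-fold) and Slamf6 (2.30-fold, 1.89-fold after quantile normalization). The list median was -0.56 log2, and 8 of 13 were lower by some amount. The median of 0 over all genes is a weak reference here, because 44.5% of those genes were exactly equal on both arrays. The 8 measured CD4 T cell markers also had a median below 0, at -0.28 log2. Of 8 Gimap GTPase genes, which support lymphocyte survival, 7 were lower by some amount, but Gimap7 (7.55-fold) alone passed 2-fold. Of 56 lectins 4 were lower, Lgals7 (5.07-fold), Clec2i (3.46-fold), Cd93 (2.62-fold) and Lgals3 (2.30-fold), and 0 higher.

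Interferon-inducible genes were lower in 15 of 49 cases and higher in none, with a list median of -0.52 log2. The RNA sensor genes Ifih1 and Dhx58 read 0.12, 0 and -2.81 and 0, 1.15 and -1.35 in Th0, Th22 and Th17. The membrane genes Ifitm3, Ifitm1 and Ifitm2, which block virus entry, were 29.9-fold, 4.99-fold and 3.22-fold lower, while Ifitm7, off the list, was 2.16-fold higher (1.67-fold after quantile normalization). Of the GTPase genes Gbp7 was 4.09-fold and Gbp4 3.85-fold lower, Ifi27l2a was 3.60-fold lower and Oas3, which senses viral RNA, 3.47-fold. Cd274, which encodes PD-L1, was 2.78-fold lower, the immunoproteasome subunit genes Psmb10 and Psmb9 2.26-fold and 2.05-fold, and Isg20 2.02-fold; these 4 and Usp18 were at 1.54- to 1.89-fold after quantile normalization. Samd9l, an antiviral gene off the list, was 4.58-fold lower and Epsti1 6.62-fold. Of 59 Trim genes 5 were lower and 0 higher: Trim12a (4.83-fold), Trim30d (4.64-fold), Trim30a (4.55-fold), Trim12c (3.49-fold) and Trim14 (2.31-fold, 1.69-fold after quantile normalization). Trim12a, Trim12c, Trim30a and Trim30d are tandem relatives, and their signals may be shared.

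Some genes of inflammatory cell death also passed 2-fold, most of these towards Th22. Casp4 and Casp1, which encode the caspases that cut gasdermin D, read 0, 0.18 and -2.38 and 0.10, 0 and -2.08. Gsdmd, the gasdermin D gene itself, was 2.45-fold lower, and Mlkl, whose product opens the membrane in necroptosis, read 0.53, 0 and -1.98. Ninj2 was 2.02-fold lower and its relative Ninj1, which ruptures the membrane after gasdermin pores form, 2.22-fold higher. In this list, gathered after the values were seen, 5 of 19 were lower, 1 higher and 13 within 2-fold. Ripk3 (-0.20 log2), Casp8 (-0.02 log2) and Pycard (-0.26 log2) lay within 2-fold. Among the NLR, TLR and caspase genes Casp6 was also lower (2.30-fold), and Naip2 (2.43-fold) and Card6 (2.01-fold) were higher. Gsdmd, Ninj1, Ninj2, Casp6 and Card6 lay at 1.53- to 1.90-fold after quantile normalization.

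Promoters were searched for motifs in RefSeq windows of GRCm38.p6 that run from 250 bases before to 50 after each listed start, on both strands, and a gene was counted when any of its windows held the motif. The core of the interferon-stimulated response element, written GAAA, any 2 bases and GAAA again, was found in 607 of 15614 measured genes with a window (3.89%), in 30 of 234 genes lower in Th17 (12.8%) and in 7 of 173 higher genes (4.05%). Counted by window the shares were 3.27%, 10.2% and 3.43%. Of the 30 lower genes 6 were on the interferon list, and without that list 24 of 223 lower genes (10.8%) held it. The list is not a complete set of interferon-induced genes, so the share without it does not describe genes free of interferon control. The lower genes with the core also include the tandem relatives Trim12a, Trim12c, Trim30a and Trim30d, which may not be separate matches. Another 8 motifs were searched. The Smad CAGA box CAGACAG was in 8.27% of all, 14.5% of higher and 10.7% of lower genes. AP-1 (TGANTCA) was in 8.08%, 10.4% and 11.1%, and the gamma-activated site (TTCNNNGAA) in 8.99%, 9.83% and 10.3%. The T-box core TCACACCT was in 1.31%, 3.47% and 2.14%, the cyclic AMP element TGACGTCA in 2.72%, 1.73% and 2.14%, and the xenobiotic response core TTGCGTG in 1.61%, 2.31% and 1.71%. The Smad palindrome GTCTAGAC was in 45 genes, 2 of them higher and 0 lower, and the Maf element, TGCTGA followed directly by GTCA, in 20, 0 higher and 1 lower. The last includes an AP-1 site. A match describes letters in these windows and is not a binding site.

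The windows of 5 lower genes are shown because they hold the response element core, in capitals here. Trim30a and Trim30d are neighbours whose windows resemble each other, Ifih1 is the RNA sensor gene, and neither Plxnc1 nor Serpinb9 was on the interferon list. Serpinb9 encodes the granzyme B inhibitor and was 11.8-fold lower. The core begins 36 bases before the listed start in Trim30a, 41 in Trim30d, 118 in Plxnc1 and 46 in Serpinb9, and 32 bases after it in Ifih1. For Trim30a, which has another listed start, 1 of its windows is given.
Trim30a, chr7:104465144-104465443, minus strand: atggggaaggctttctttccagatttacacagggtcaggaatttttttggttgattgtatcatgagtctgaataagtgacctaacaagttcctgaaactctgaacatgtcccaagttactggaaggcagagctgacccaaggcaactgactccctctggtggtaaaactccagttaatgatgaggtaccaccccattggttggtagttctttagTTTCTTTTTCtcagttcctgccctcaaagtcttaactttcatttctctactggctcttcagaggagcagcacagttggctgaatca
Trim30d, chr7:104507800-104508099, minus strand: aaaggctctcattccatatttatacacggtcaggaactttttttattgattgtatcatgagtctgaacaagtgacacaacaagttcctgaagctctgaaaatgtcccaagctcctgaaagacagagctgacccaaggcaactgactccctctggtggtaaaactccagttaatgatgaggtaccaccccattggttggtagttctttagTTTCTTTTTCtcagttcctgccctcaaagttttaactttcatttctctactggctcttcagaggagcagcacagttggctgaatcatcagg
Ifih1, chr2:62646206-62646505, minus strand: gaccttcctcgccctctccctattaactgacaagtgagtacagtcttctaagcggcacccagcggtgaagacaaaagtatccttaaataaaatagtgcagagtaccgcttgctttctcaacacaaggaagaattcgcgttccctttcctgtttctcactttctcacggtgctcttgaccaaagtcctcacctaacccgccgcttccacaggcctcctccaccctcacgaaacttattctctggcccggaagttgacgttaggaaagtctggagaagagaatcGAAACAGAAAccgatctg
Plxnc1, chr10:94944796-94945095, minus strand: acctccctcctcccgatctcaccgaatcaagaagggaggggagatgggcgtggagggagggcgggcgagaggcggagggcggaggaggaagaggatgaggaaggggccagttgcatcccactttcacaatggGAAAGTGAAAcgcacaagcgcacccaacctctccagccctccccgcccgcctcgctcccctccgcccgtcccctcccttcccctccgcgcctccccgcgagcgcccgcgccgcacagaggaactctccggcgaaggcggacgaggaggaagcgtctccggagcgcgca
Serpinb9, chr13:33004291-33004590, plus strand: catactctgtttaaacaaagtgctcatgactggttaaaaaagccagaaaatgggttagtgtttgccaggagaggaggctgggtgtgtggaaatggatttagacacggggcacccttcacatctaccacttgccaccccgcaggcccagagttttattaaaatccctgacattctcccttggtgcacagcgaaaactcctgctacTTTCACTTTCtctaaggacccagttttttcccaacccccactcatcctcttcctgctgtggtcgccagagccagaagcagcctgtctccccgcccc
In Trim30a, Trim30d and Serpinb9 the capitals read as the reverse complement of the core.

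Among enzymes of redox and steroid chemistry most lay within 2-fold, and those past it included several close relatives. Of 92 aldo-keto reductases and dehydrogenases 5 were lower and 0 higher. Akr1c18, which inactivates progesterone, read 0.57 in Th0, 0 in Th22 and -4.68 in Th17, a 25.6-fold difference, and its relatives Akr1c12 and Akr1c13 were 5.64-fold and 3.06-fold lower. Akr1b8 was 2.68-fold lower through a high value in Th22 (0, 1.37 and -0.05), and Adh1 2.21-fold. The steroid-forming enzyme gene Cyp11a1 was 3.38-fold higher, at -0.17, 0 and 1.76. Of 35 glutathione transferases and peroxidases 3 were lower, all of the theta class: Gstt1 (0, 1.18 and -0.72), Gstt3 (3.06-fold) and Gstt2 (2.34-fold). Selenbp1 and Selenbp2, which encode selenium-binding proteins, were 3.60-fold and 3.21-fold lower and were named after their values were seen. None of 22 antioxidant response genes passed 2-fold. Akr1c13 and Adh1 were at 1.98-fold and 1.64-fold after quantile normalization.

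In the retinoid list of 22, Crabp2, which carries retinoic acid to its receptor, read 1.25, 0 and -1.77, and Stra6, a retinol uptake receptor gene, was 2.72-fold lower (1.85-fold after quantile normalization). Acsl6, which activates fatty acids, was 3.26-fold lower, Elovl6, which lengthens them, 2.08-fold, and Acsbg1, another activating enzyme gene, 5.35-fold higher, at -0.29, 0 and 2.42. Upp1, which breaks down uridine, was 4.81-fold lower. Cpox, an enzyme gene of heme synthesis, was 3.20-fold higher and the single gene past 2-fold among 25 of iron and heme. None of 17 polyamine, 14 one-carbon or 18 tryptophan and NAD genes passed 2-fold.

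**Figure D4:**
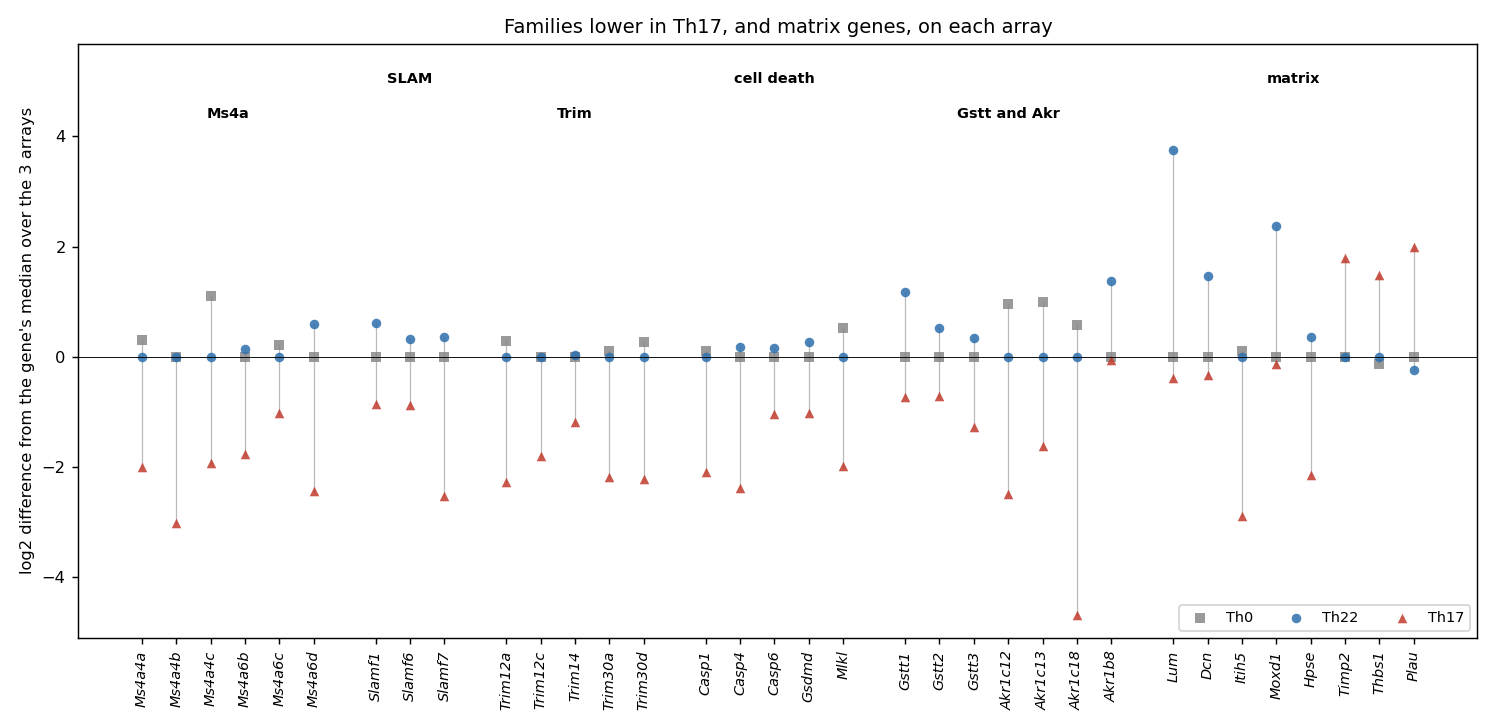
Values of members of families that were lower in Th17, and of matrix genes, on each of the 3 arrays as log2 differences from the gene's median (squares Th0, circles Th22, triangles Th17; 1 array a condition). Th17 is the low array for the Ms4a, SLAM, Trim and cell death genes, whereas Lum, Moxd1, Dcn and Akr1b8 stand out by a high value in Th22.

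Some of the genes past 2-fold lay next to each other. In the order of measured genes along the chromosomes of GRCm38.p6, which was used for neighbours alone, 29 of the 220 higher genes (13.2%) had an adjacent gene that was also at least 2-fold higher, against 2.04% of the other 19696 genes placed. Of the 300 lower genes 53 (17.7%) had an adjacent lower gene, against 2.67% of the others. These 82 genes fell into 34 runs, 13 higher and 21 lower, of which 25 were pairs, 6 held 3 genes, 1 held 4 and 2 held 5. In 1 case adjacent genes passed 2-fold in opposite directions. The genes of the runs named next were chosen after their values were seen.

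A large part of the runs were relatives that lie side by side, which can share probe signal, and no share was taken without them. Il17a with Il17f, Akr1c18 with Akr1c13, Serpinb6b with Serpinb9, Dcn with Lum, Ifi27l2a with Ifi27, and Aqp7 with Aqp3 were such runs. Others were the 5 adjacent Ms4a genes, the 4 Trim genes, Ifitm2, Ifitm1 and Ifitm3, Casp1 and Casp4, Gstt3 and Gstt1, the receptor genes Lilr4b and Lilrb4a, and the chemokine receptor genes Cxcr2 and Cxcr1. Gbp8, Gbp9, Gbp4 and Gbp11, interferon-induced GTPase genes, lay beside the lower Abcg3, and of these 5 Gbp9 and Abcg3 were at 1.78-fold and 1.79-fold after quantile normalization. Tmem176b and Tmem176a, a pair of ion channel-like genes with a shared promoter region, were 3.54-fold and 3.50-fold higher with nearly the same values on all arrays.

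Other runs joined genes that are not named as members of the same family. Tfap2a, Gcnt2 and Pak1ip1 (2.94-fold) were adjacent and higher, as were Cpox, Gpr15 and Cldnd1, and Casr (2.39-fold), Cd86 (4.51-fold) and Ildr1 (4.33-fold). Casr encodes the calcium-sensing receptor and Cd86 a costimulatory ligand. Ankrd55 (8.05-fold) lay next to Il6st (3.62-fold), which encodes the shared signalling chain of the IL-6 receptor, and Kctd14 (7.89-fold) next to Ints4 (4.27-fold). Ccl20, the CCR6 ligand gene, lay next to Daw1 (2.81-fold), and Cd101 next to Ptgfrn, both of which encode immunoglobulin-domain proteins. Among lower runs, the cytokine gene Il3 lay next to Acsl6, the integrin gene Itgb3 (3.61-fold) next to Myl4 (2.46-fold), Trim14 next to Coro2a, and Btla (4.37-fold) next to Cd200 (3.22-fold), which encode inhibitory surface proteins. After quantile normalization each of the 34 runs still had a gene past 2-fold except that of Ifitm7 with Bmerb1 (1.67-fold and 1.79-fold), while Casr (1.97-fold), Daw1 (1.996-fold), Myl4 (1.93-fold), Ptgfrn and Trim14 lay below it.

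**Figure D5:**
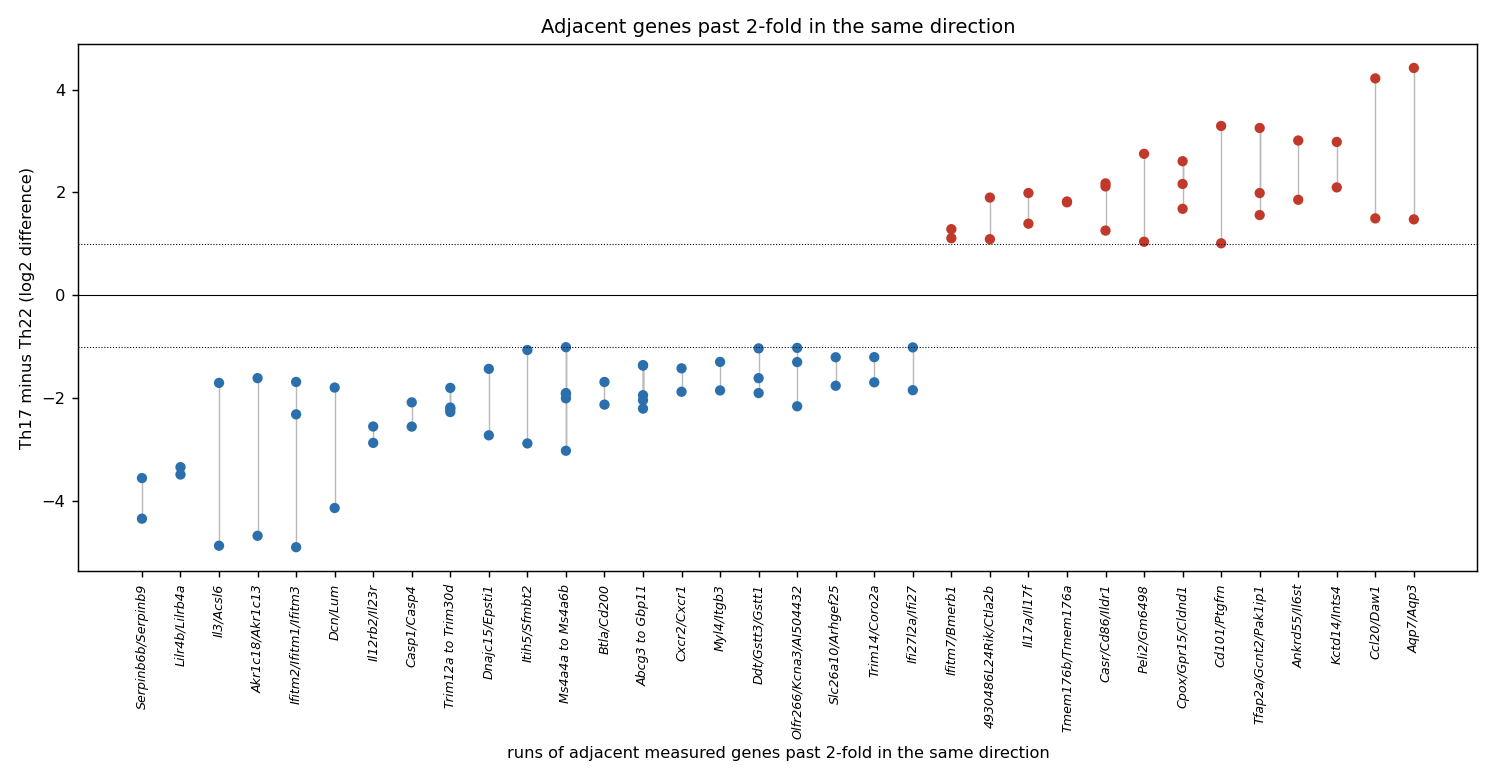
Each column is a run of adjacent measured genes that passed 2-fold in the same direction, and each point a gene's Th17 minus Th22 difference in log2 (1 array a condition; dotted lines mark 2-fold). The 13 runs to the right are higher and the 21 to the left lower in Th17.

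Of 302 microRNA genes on the array Mir181b-1 alone passed 2-fold, at -0.04 in Th0, 0 in Th22 and 1.24 in Th17, a 2.36-fold difference that was 1.76-fold after quantile normalization. Its neighbour in the same cluster, Mir181a-1, was equal on all 3 arrays and may not have been detected. Between Th17 and Th22, 210 of the 302 microRNA genes were equal. The miR-181 family tunes the sensitivity of T cell receptor signals. The mature 5p forms of both, from RefSeq on GRCm38.p6, chr1:137966650-137966673 and chr1:137966468-137966490 on the plus strand, are shown because they share a seed (bases 2 to 8, in capitals). A difference was read for Mir181b-1 alone.
mmu-miR-181b-5p: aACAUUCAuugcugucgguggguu
mmu-miR-181a-5p: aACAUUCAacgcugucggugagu
The array probe reads the precursor region, so that the mature forms were not measured.

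The genes that fell in no family included some of the largest differences. Beside those described, Nt5e, which encodes the adenosine-forming enzyme CD73, read -0.78 in Th0, 0 in Th22 and 4.60 in Th17, and Pdpn, which encodes the mucin-like podoplanin, 0, -0.03 and 3.45. Klrd1, which encodes a receptor chain of NK cells, was 7.55-fold higher, Golm1, a Golgi protein gene, 7.25-fold, and Stab1, a scavenger receptor gene, 6.27-fold. Tnfrsf13b, which encodes the B cell receptor TACI, read -0.01, 0 and 2.64, Olfm2 0, -0.07 and 2.50, and Tmeff1, whose product inhibits Nodal signals, 0, -0.11 and 2.44. Aplp2, a relative of the amyloid precursor gene, was 5.64-fold higher, Prr5l, which encodes a partner of the kinase complex mTORC2, 5.61-fold, and Fnbp1l, which encodes a membrane-bending protein, 5.30-fold. Lbp, which encodes a lipopolysaccharide-binding protein, read -1.26, 0 and 2.39, and the kinase gene Alpk2 -1.23, 0 and 2.23, so that in these genes Th22 lay between the other arrays.

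Towards Th22, Tnfsf8, which encodes CD30 ligand, read 0.61 in Th0, 0 in Th22 and -4.43 in Th17, the granule gene Nkg7 0.23, 0 and -4.38, and Serpinb6b 0.68, 0 and -4.35. Tnip3, which restrains NF-κB, was 14.4-fold and Pglyrp1, which encodes a peptidoglycan-binding protein, 10.2-fold lower. The IL-1 decoy receptor gene Il1r2 read 0, 2.47 and -0.59 and Ermn, a cytoskeleton gene of oligodendrocytes, 0, 1.91 and -1.01, both with the high value in Th22. Il10ra, which encodes a chain of the IL-10 receptor, read 0.23, 0 and -2.82, whereas the cytokine gene Il10 read 0, -0.67 and 3.73, so that ligand and receptor lay on opposite sides. Iltifb, a close relative of the IL-22 gene with which it may share probe signal, read -0.85, 3.32 and 0, a 10.0-fold difference with the high value in Th22. Ccl3 (4.64-fold), a chemokine gene, Tmem229b (4.91-fold), Tm6sf1 (4.77-fold) and Cd80 (4.51-fold) were lower as well. Cd80 and Cd86 encode alternative ligands of CD28 and CTLA-4, and they differed in opposite directions, at 0.69, 0 and -2.17 for Cd80 and -0.36, 0 and 2.17 for Cd86. The pair of Cd80 probes lay 1.08 log2 apart.

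Other signalling and surface families had 1 to 4 members past 2-fold each, several at shares near the 2.61% of all genes. These included protein tyrosine phosphatases (2.63% of 38), cyclic nucleotide enzymes (2.78% of 72), Rab genes (2.48% of 121) and G protein signalling regulators (1.64% of 61). Shares were larger among tetraspanins (10.7% of 28), p53 targets (14.3% of 21) and annexins with S100 genes (6.67% of 30). Dgkk, a diacylglycerol kinase gene, read 0 in Th0, 0.52 in Th22 and -1.97 in Th17, a 5.61-fold difference. Ptpn14, a phosphatase gene of the Hippo pathway, read 0, 1.45 and -0.59, the calcium-binding S100a6 0, 1.90 and -0.30, and Prkar1b, a regulatory subunit gene of protein kinase A, 0, 1.13 and -0.19. Rapgef5, an exchange factor gene of Rap, read 0, 1.05 and -0.21, and the growth factor receptor genes Gfra1 and Egfr read 0, 0.89 and -0.63 and 0, 1.01 and -0.10. In the last 6 Th22 was the high array, and Gnal, which encodes an olfactory G protein, and Rab33a lay alike, at 1.02 and 0.96 in Th22. For other genes Th17 was the array set apart, with Th0 and Th22 closer to each other. These were Gucy1a1 (2.70-fold), which encodes a nitric oxide sensor subunit, Sytl3 (2.89-fold), Slfn1 (2.77-fold) and the 3 lower p53 targets Plk2 (2.61-fold), Perp and Phlda3 (2.02-fold). Cd9 (2.50-fold) and Tspan4 (2.29-fold) were lower and Tspan2 2.22-fold higher among 28 tetraspanins, and Anxa3, an annexin gene, was 3.53-fold higher. Rasa3 (2.54-fold) and Tle4 (2.08-fold), a corepressor gene, were higher as well. After quantile normalization Sytl3, Slfn1, Plk2, Perp, Phlda3, Cd9 and Tspan4 lay at 1.54- to 1.94-fold.

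Large housekeeping families showed little. No gene passed 2-fold among 67 ribosomal proteins (range -0.59 to 0.30 log2), 91 respiratory chain genes (-0.54 to 0.20), 136 RNA-binding and RNA-decay genes (-0.75 to 0.70), 43 nuclear receptor co-regulators (-0.95 to 0.77) or 55 small nucleolar RNA genes (-0.77 to 0.40). Of the respiratory chain genes 60 were lower and 15 higher in Th17 by some amount, and their median was -0.05 log2.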

How the data were processed

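Labelled cRNA of 3 samples was hybridised to single-colour Affymetrix arrays, per the labels' protocols. The deposited table holds processed values that were taken as log2 and that the authors centred on each probe's median over the arrays, which was 0 for all 28853 probes. The log base, probe summary, normalization, software and genome build are unstated in the sources used here. Higher values were read as more RNA. Samples were grouped by the T-helper subset in their titles.

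Of the probes 21789 had 1 gene symbol, updated by Entrez identifier for 21698 with RefSeq names of GRCm38.p6. Probes with several symbols (1621) or absent from the annotation (5443) did not enter the gene counts. The results of 1 list are not reported here. Probes of a gene were averaged and Th17 minus Th22 was taken, with a threshold of 2-fold and no test. The step was checked on simulated data. Named genes were taken from list members past 2-fold, the 25 largest differences each way among other genes, the 2 genes on each side of the threshold in each direction, and genes chosen after their values were seen, as stated or as for Itga3, Papss2, Tfap2a, Ifitm7 and Cd86. Of a family with more than 15 such members the 12 largest were taken. Members and lists were chosen with earlier results of these data known, and 9 further lists after the values were seen. The alternatives were quantile normalization of the centred values, another centring, the smallest probe difference, probes with several symbols, and natural logs. Python 3.11.15, numpy 2.4.6, pandas 2.3.3 and matplotlib 3.10.9 were used.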

Additional observations from a re-analysis of the deposited data

How the results depend on the processing

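None of the 520 genes changed direction under the 5 alternatives, but most of these could hardly reverse one. Natural logs rescale all differences alike, and the other centring shifted them by 0.0070 log2. Taking the smallest probe difference leaves the 506 genes with 1 probe unchanged. Quantile normalization gave 197 higher and 202 lower genes, left 316 of the 520 past 2-fold, and moved the share of higher genes from 42.3% to 49.4%. Subtracting the median of non-zero differences (0.0070 log2) left 517 genes, taking the smallest probe difference 517, and including probes with several symbols 516. If the deposited values were natural logs, 340 genes would be higher and 519 lower, and Th0 would lie between Th17 and Th22 for 430 genes in place of 252, by construction of the smaller threshold. The number of the 100 lists with a gene past 2-fold ran from 67 to 82. Of 154 counts of list members by direction, 69 moved by more than 1.5 times under quantile normalization and 58 with natural logs. No paired analysis was possible because each condition had 1 array. Signal over background is unknown, so a gene equal on all arrays may not have been detected.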

Other observations

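Of the 1621 probes with several gene symbols, 11 were at least 2-fold higher and 6 lower in Th17 than in Th22 (1.05%), with differences from -3.07 to 2.47 log2. Of 5443 probes that the annotation did not list, 11 were higher and 24 lower (0.643%), from -2.35 to 3.36 log2.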
